A study of Mus musculus with 7 samples.

Results

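Neural stem cells (NSC) cultured from embryonic mouse brain were set against pluripotent cells in single RNA-seq libraries. The brain NSC library came from BDF2 embryos, whose brain vesicles were dissociated, plated on poly-D-lysine and laminin and grown with 20 ng/mL bFGF and 20 ng/mL EGF. The labels give the embryos as E12.5 in one place and E13.5 in another. The induced pluripotent stem cell (iPSC) library carried the strain label A12 (Mbd3 flox/-), so these cells hold 1 floxed and 1 deleted allele of Mbd3, and its description reads ESCs with MEF feeders followed by question marks. The embryonic stem cell (ESC) library was the line v6.5, grown with mouse embryonic fibroblast (MEF) feeders. The other 4 of the 7 libraries follow the conversion of fibroblasts to NSC with the factors Oct4, Sox2, Klf4 and Myc, and enter here only as added levels. Each group had 1 library, so no value has a replicate error and no difference has a test. A gene was tested if it reached 2 RPKM (reads per kilobase of exon and per megaread) in any of the 3 libraries, which held for 17095 of 29607 genes. A gene was counted as higher or lower in brain NSC where its log2 ratio, with 1 RPKM added to each value, was 2 or more (4-fold) in the same direction over iPSC and over ESC. This rule found 3147 genes.

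Neural stem cells line the ventricles of the embryonic brain as radial glia, divide under Fgf, Egf and Notch signals, and give rise to neurons and later to astrocytes and oligodendrocytes. Pluripotent cells are held in self-renewal by Oct4 (Pou5f1), Nanog and Sox2 and form an epithelium-like colony with E-cadherin. Sox2 is shared by both cell types, where it pairs with different POU proteins.

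The libraries differed in depth and in ways that the groups do not separate. Depth, read from the steps of the values, was 27 megareads (MR) for brain NSC, 58 MR for iPSC and 41 MR for ESC, and the gene values summed to 1.28e+06, 1.60e+06 and 1.95e+06 RPKM. At 27 MR, 3 reads over 1 kb of exon correspond to 0.111 RPKM in brain NSC, so a value of 0 there allows up to that level for 1 kb of exon and more for shorter features. Over the 28 genes of a fibroblast and mesenchyme list, the median level was 0.0592% of the level in the MEF library for brain NSC, 0.583% for iPSC and 11.5% for ESC. The MEF library carries the A12 strain label as well. Xist, the RNA that coats the inactive X chromosome, had 447 RPKM in brain NSC, against 1.91 RPKM in iPSC and 3.32 RPKM in ESC, while the Y-linked Eif2s3y had 0 RPKM in brain NSC, against 90.9 RPKM in iPSC and 103 RPKM in ESC. Strain, sex, medium and feeders therefore cannot be told apart from cell type. Fewer cells of a type and less RNA per cell also cannot be told apart in such bulk samples.

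The label of the brain NSC was checked against markers. Nes, which encodes nestin, had 123 RPKM in brain NSC, against 5.65 RPKM in iPSC and 6.42 RPKM in ESC. Sox9, a glial and stem cell factor, had 38.8 RPKM in brain NSC, against 0.238 and 0.153 RPKM in iPSC and ESC. Pax6, a factor of dorsal radial glia, had 19.9 RPKM in brain NSC, against 0.235 and 0.101 RPKM in iPSC and ESC. Each of these markers set brain NSC apart from both lines, but Sox1, a marker of the early neural plate, did not: it had 2.29 RPKM in brain NSC, 1.98 RPKM in iPSC and 1.06 RPKM in ESC. Several markers of mature cells were low in brain NSC, but some stood above both lines. Of the astrocyte markers, Gfap had 3.26 RPKM in brain NSC, against 0.0684 and 0.0537 RPKM in iPSC and ESC. Aqp4 had 1.802 RPKM, against 0 RPKM in both lines, and Aldh1l1 had 1.14 RPKM, against 10.5 and 23.5 RPKM. Snap25 (neurons) had 1.62 RPKM, against 0.0785 and 0.0185 RPKM. Mbp (myelin) had 0.0586 RPKM in brain NSC, and Ptprc and Tyrobp (leukocytes) had 0 RPKM. Other astrocyte and neuron genes, such as Sparcl1 and Map2, were high in brain NSC, as given below. Dcx, a marker of newborn neurons, had 10.9 RPKM in brain NSC, against 0.0223 RPKM in iPSC and 0 RPKM in ESC. In the pluripotent libraries Pou5f1 and Nanog carried the labels: Pou5f1 had 1.55 RPKM in brain NSC, against 2067 RPKM in iPSC and 1410 RPKM in ESC, and Nanog had 0.154, 772 and 765 RPKM in the same order.

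**Figure D1:**
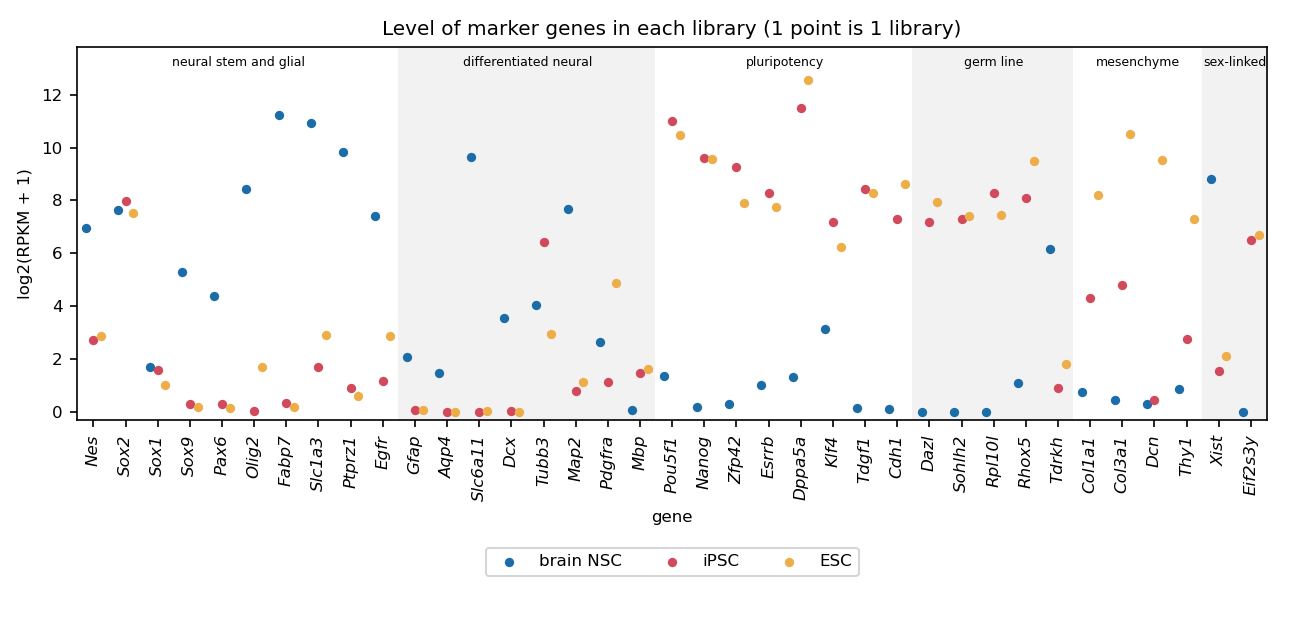
Level of marker genes as log2(RPKM + 1) on the vertical axis, with 1 point for each library (brain NSC, iPSC and ESC from left to right within a gene). Olig2, Fabp7 and Slc1a3 stand high only in the brain NSC point of their columns and Pou5f1 and Nanog only in the iPSC and ESC points, while the 3 points of Sox2 lie between 183 and 252 RPKM.

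Of the 17095 genes tested, 1476 (8.63%) were higher in brain NSC than in both pluripotent lines and 1671 (9.77%) were lower. Scaling the libraries to equal totals turned this split round, to 2073 higher and 1398 lower, and moved the median log2 ratio of all tested genes over iPSC to 0.19, against -0.12 with the values as deposited, and over ESC to 0.34, against -0.24. At 16-fold or more, 304 genes were higher and 516 lower. Against iPSC alone 2101 genes (12.3%) were higher and 2193 (12.8%) lower, and against ESC alone 1707 (9.99%) were higher and 2545 (14.9%) lower. The genes just inside the 4-fold limit were Apc at 2.001 and Zbtb4 at 2.002 on the log2 scale, and Tmeff2 at 1.998 lay just outside it. Levels on the log2 scale correlated across the tested genes at r = 0.651 between brain NSC and iPSC, 0.635 between brain NSC and ESC and 0.915 between iPSC and ESC, which describes genes and not replicates.

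The median level of the higher genes was 31.3 RPKM in brain NSC, against 1.11 RPKM in iPSC and 1.70 RPKM in ESC. That of the lower genes was 0.181 RPKM in brain NSC, against 26.8 RPKM in iPSC and 32.1 RPKM in ESC, and 496 of them had no read in brain NSC. The higher genes had a median of 6.55 RPKM in MEF, and 439 of them were under 2 RPKM there. In the OSKM-made NSC their median was 14.7 RPKM in the Nanog-Tomato-positive and 21.7 RPKM in the Nanog-Tomato-negative library, and that of the lower genes was 2.36 and 0.952 RPKM in the same order. The lower genes had a median of 4.37 RPKM in MEF. Since the genes were chosen as extremes of brain NSC against the pluripotent lines, nothing is read from a level in between.

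**Figure D2:**
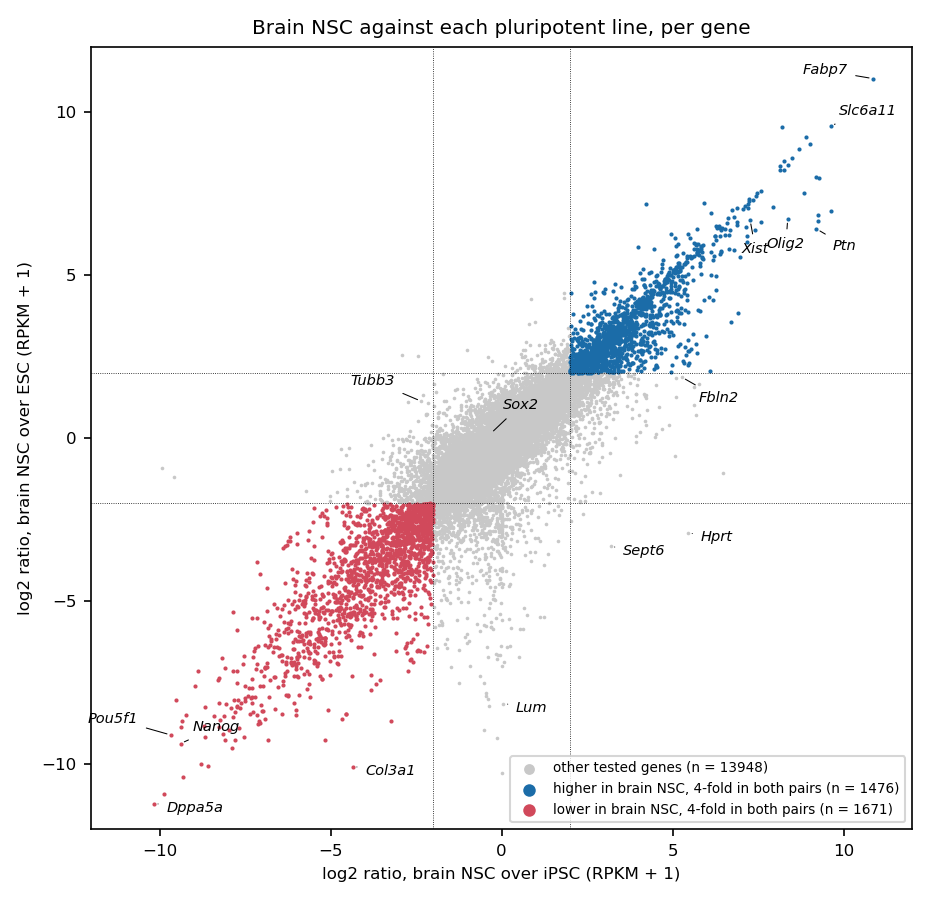
Log2 ratio of brain NSC over iPSC (horizontal) against that over ESC (vertical) for 17095 genes, with 1 point per gene. The 1476 blue genes pass 4-fold upward and the 1671 red genes downward in both pairs, and Col3a1 and Lum lie low on the ESC axis, the library with the higher fibroblast list.

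Fabp7, the brain lipid-binding protein of radial glia, had the largest ratio, with 2394 RPKM in brain NSC, against 0.285 RPKM in iPSC and 0.145 RPKM in ESC, a log2 ratio of 10.86 and 11.03. Slc6a11, a GABA transporter, had 792 RPKM in brain NSC, against 0.00858 and 0.0358 RPKM in iPSC and ESC, and Slc1a3, the glutamate transporter GLAST, had 1936 RPKM, against 2.28 and 6.51 RPKM. Gpm6a and Ptprz1, surface proteins of neural cells, Bcan and Ncan, the matrix proteoglycans brevican and neurocan, Mlc1, a membrane protein of astrocyte endfeet, Timp4, a metalloproteinase inhibitor, Acsbg1, an acyl-CoA synthetase, and Slc25a18, a mitochondrial glutamate carrier, were also among the 12 with the largest ratios. Each of these 8 was under 1 RPKM in both pluripotent lines. Ptprz1 had 906 RPKM in brain NSC, against 0.880 and 0.517 RPKM in iPSC and ESC, and its 1029-fold ratio over iPSC had a 95% counting interval of 934 to 1137, which covers counting error only.

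Other genes of the higher set were abundant in brain NSC without being silent in the pluripotent lines. Ptn, the growth factor pleiotrophin, was the highest of all with 3872 RPKM in brain NSC, against 5.57 RPKM in iPSC and 44.3 RPKM in ESC. Serpine2, the protease inhibitor nexin-1, had 3160 RPKM in brain NSC, against 106 and 191 RPKM in iPSC and ESC. Vegfa, the endothelial growth factor, had 1169 RPKM in brain NSC, against 46.8 and 54.1 RPKM. Ckb, brain creatine kinase, had 1987 RPKM in brain NSC, against 286 and 144 RPKM. Vim, the filament vimentin, was nearer to the limit, with 1176 RPKM in brain NSC, against 274 and 278 RPKM in the pluripotent lines and 3595 RPKM in MEF.

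Gene lists by role were read against all tested genes at 2-fold in both pairs, where 3247 genes (19%) were higher and 3733 (21.8%) lower in brain NSC. Against iPSC alone these shares were 25.2% and 27.2%, and against ESC alone 22.2% and 30.9%. Among 32 tested neural stem cell and radial glia genes 25 were higher and 1 lower, with a median log2 ratio of 4.29 over iPSC and 4.15 over ESC, beside -0.12 and -0.24 for all tested genes. Of 23 glial fate transcription factors 18 were higher and 1 lower. Olig2, a bHLH factor of oligodendrocyte and motor neuron progenitors, had 342 RPKM in brain NSC, against 0.0409 RPKM in iPSC and 2.26 RPKM in ESC, and its neighbour Olig1 had 320, 0.310 and 1.34 RPKM. Sox8 had 138 RPKM in brain NSC, against 0.184 and 0.0381 RPKM, and Sox4 and Sox6 were higher too. The POU factors of neural progenitors Pou3f2, Pou3f3 and Pou3f4 had 18.0, 47.0 and 47.4 RPKM in brain NSC and each was under 0.6 RPKM in both lines. Klf15 was alike in all 3 libraries, with 26.1 RPKM in brain NSC, 25.8 RPKM in iPSC and 18.4 RPKM in ESC, as was Sox2, with 201, 252 and 183 RPKM.

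Genes of the brain matrix and of cell adhesion had the largest share of higher members among the lists with over 10 tested genes, at 21 of 24 higher and 1 lower. Cntn1, an adhesion molecule of axons and glia, had 133 RPKM in brain NSC, against 0.256 and 0.0532 RPKM in iPSC and ESC. Vcan, the broadly expressed proteoglycan versican, was not past the limit, with 20.2 RPKM in brain NSC, 7.24 RPKM in iPSC and 27.8 RPKM in ESC. Among transporters and receptors of transmitters 18 of 22 were higher and 2 lower. The glutamate transporter Slc1a2 had 135 RPKM in brain NSC, against 0.0234 and 0.0400 RPKM in iPSC and ESC, and the AMPA receptor subunit Gria2 had 88.8 RPKM, against 0.0324 and 0.0296 RPKM. Slc1a1, a glutamate transporter also found outside the brain, had 6.23 RPKM in brain NSC, 6.45 RPKM in iPSC and 12.55 RPKM in ESC.

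Of the signalling lists, the Fgf and Egf list had 18 of 26 members higher and 3 lower. Of the receptors, Fgfr3 had 230 RPKM in brain NSC, against 0.326 and 0.336 RPKM in iPSC and ESC, Egfr had 170 RPKM, against 1.24 and 6.28 RPKM, and Erbb4, a neuregulin receptor, had 38.1 RPKM, against 0.00423 and 0.0319 RPKM. The ligand Fgf1 had 88.3 RPKM in brain NSC, against 0.972 and 0.266 RPKM, whereas Fgf4, the ligand of pluripotent cells, had 0.0367 RPKM in brain NSC, against 94.3 and 205 RPKM. Egr1, an immediate target of these pathways, had 134 RPKM in brain NSC, against 0.725 and 0.551 RPKM. The medium of the brain NSC contained both growth factors, and the media of the pluripotent lines are not given in the labels. The part of the medium in these levels was not tested.

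In the Notch list 11 of 21 members were higher and none lower. The target Hes5 had 34.5 RPKM in brain NSC, against 0.0542 RPKM in iPSC and 0 RPKM in ESC, the glycosyltransferase Lfng had 96.3 RPKM, against 0.682 and 0.880 RPKM, the target Hey1 had 52.6 RPKM, against 0.908 and 2.94 RPKM, and the ligand Dll1 had 37.8 RPKM, against 0.380 and 2.22 RPKM. Hes1, a target that is also active outside neural cells, was alike, with 59.4 RPKM in brain NSC, 74.5 RPKM in iPSC and 52.0 RPKM in ESC. Of 25 Wnt genes 9 were higher and 4 lower. The ligands Wnt7a and Wnt7b had 35.4 and 14.6 RPKM in brain NSC and were under 0.3 RPKM in both lines, and the receptor Fzd9 had 77.3 RPKM, against 2.65 and 2.49 RPKM. Sfrp1, a secreted Wnt antagonist, had 0.0593 RPKM in brain NSC, against 42.9 and 127 RPKM in iPSC and ESC and 173 RPKM in MEF. Of 26 Lif, Nodal and Bmp genes 5 were higher and 10 lower. Nodal had 0 RPKM in brain NSC, against 115 and 23.4 RPKM, its co-receptor Tdgf1 had 0.116 RPKM, against 343 and 309 RPKM, and Socs3, a feedback target of Lif, had 1.02 RPKM, against 73.0 and 81.8 RPKM, while Bmpr1b, a Bmp receptor, had 8.71 RPKM in brain NSC, against 0.0736 and 0.159 RPKM.

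Regional genes of several levels of the neural tube were present. Zic1, a dorsal factor, had 38.1 RPKM in brain NSC, against 0.408 and 0.727 RPKM, Emx2 had 9.72 RPKM, against 0.0769 and 0.753 RPKM, and 5 of 9 tested forebrain genes were higher with none lower. Dbx2, a factor of mid-dorsoventral progenitors in the cord and hindbrain, had 63.98 RPKM in brain NSC, against 0.797 and 0.578 RPKM, and in the midbrain, hindbrain and cord list 8 of 11 were higher and 2 lower. In the Hox clusters, whose genes are active from the hindbrain backward, 8 of 14 tested were higher and none lower. Hoxa5 had 14.9 RPKM in brain NSC, against 1.20 and 0.507 RPKM, with Hoxa2, Hoxa3 and Hoxa4 at 6.86, 9.90 and 10.1 RPKM and under 1 RPKM in both lines, and Hoxd10 had 12.2 RPKM, against 0.0943 and 0.101 RPKM. MEF had 10.5 RPKM of Hoxa5 and 4.65 RPKM of Hoxd10.

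Differentiation genes were present in part. Of 16 astrocyte genes 10 were higher and 1 lower. Sparcl1, a secreted astrocyte protein, had 947 RPKM in brain NSC, against 0.513 and 2.76 RPKM in iPSC and ESC, and the aldolase Aldoc had 563 RPKM, against 6.68 and 10.7 RPKM. Of 18 neuron genes 11 were higher and 4 lower: Map2, a dendritic microtubule protein, had 203 RPKM in brain NSC, against 0.739 and 1.21 RPKM, while Stmn2, a growth cone protein, had 0 RPKM in brain NSC, against 224 and 262 RPKM. Tubb3 split the pluripotent lines, with 15.8 RPKM in brain NSC, 84.1 RPKM in iPSC and 6.67 RPKM in ESC. In the oligodendrocyte precursor list 5 of 8 were higher and 1 lower, led by the proteoglycan Cspg4 at 42.5 RPKM in brain NSC, against 0.0658 and 0.381 RPKM, and Bcas1 at 118 RPKM, against 4.06 and 2.73 RPKM. Pdgfra, the receptor that defines these precursors, had 5.36 RPKM in brain NSC, 1.18 RPKM in iPSC and 28.3 RPKM in ESC, where the fibroblast list was also highest, and its part in the ESC value was not tested.

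**Figure D3:**
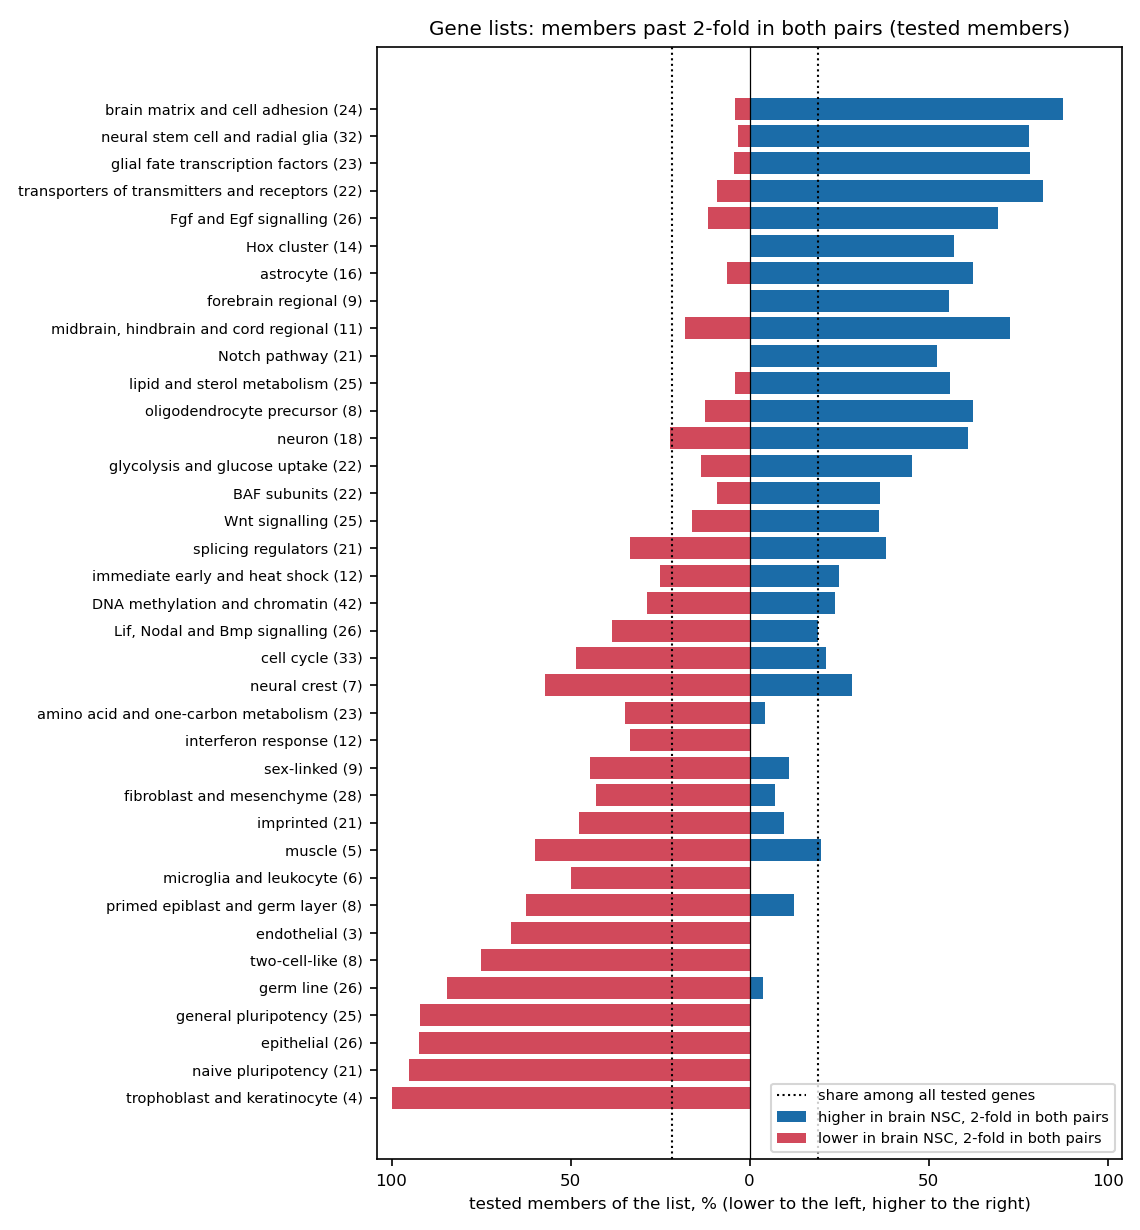
Share of the tested members of each gene list (horizontal, in %, number tested in parentheses) that were higher (blue, right) or lower (red, left) in brain NSC at 2-fold in both pairs. Dotted lines mark the shares among all tested genes, 19% higher and 21.8% lower, and the neural lists extend past them to the right while the pluripotency, germ line and epithelial lists extend past them to the left.

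Metabolic genes differed by pathway. In glycolysis and glucose uptake 10 of 22 were higher and 3 lower. Gpi1 and Tpi1, enzymes of the pathway, had 2096 and 1413 RPKM in brain NSC, against 359.5 and 244 RPKM in iPSC and 488 and 275 RPKM in ESC, and the neural enolase Eno2 had 88.8 RPKM, against 2.66 and 5.26 RPKM. Pfkp, a phosphofructokinase, and Slc2a3, a glucose transporter, were lower, with 48.2 and 102 RPKM in brain NSC, against 305 and 569 RPKM in iPSC and 245 and 697 RPKM in ESC. In lipid and sterol metabolism 14 of 25 were higher and 1 lower: the desaturases Scd2, Fads1 and Fads2 had 1612, 454 and 550.0 RPKM in brain NSC, against 197, 39.8 and 67.9 RPKM in iPSC and 189, 65.8 and 112 RPKM in ESC. The lower member was Fabp3, a fatty acid binding protein of muscle, with 0.315 RPKM in brain NSC, against 83.9 and 470.2 RPKM. Of 23 amino acid and one-carbon genes 1 was higher and 8 lower. Tdh, the threonine dehydrogenase on which mouse pluripotent cells depend, had 0.118 RPKM in brain NSC, against 664 and 401 RPKM, and Slc7a3, a transporter of cationic amino acids, had 1.52 RPKM, against 206 and 87.0 RPKM. The higher member was Sardh, sarcosine dehydrogenase, with 60.0 RPKM in brain NSC, against 0.0730 and 0.845 RPKM.

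Pluripotency genes were nearly all lower. In the list of naive pluripotency 20 of the 21 tested members stood lower and 0 higher, with a median log2 ratio of -6.07 over iPSC and -5.41 over ESC, and in the list of general pluripotency it was 23 of 25. Dppa5a, an RNA-binding protein of the naive state, had 1.496 RPKM in brain NSC, against 2867 RPKM in iPSC and 5932 RPKM in ESC. Zfp42 (Rex1), a zinc finger marker of the naive state, had 0.226 RPKM in brain NSC, against 617 and 238 RPKM, and the nuclear receptor Esrrb had 1.04 RPKM, against 313 and 216 RPKM. Klf4, one of the reprogramming factors, kept the highest level of these in brain NSC, 7.90 RPKM, against 143 and 75.2 RPKM. Jam2, a junction protein, was the naive member not past the limit, with 109 RPKM in brain NSC, 192 RPKM in iPSC and 90.2 RPKM in ESC. Sox2 was among the general members not past it. In the primed epiblast and germ layer list 5 of 8 were lower and 1 higher, the POU factor Pou3f1 at 3.83 RPKM in brain NSC, against 0.773 and 0.178 RPKM, whose smaller log2 ratio was 0.71 with 4 RPKM added in place of 1.

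Among the lowest genes by ratio were several with less known roles in pluripotency. Chchd10, a mitochondrial protein, had 0.0789 RPKM in brain NSC, against 710.0 RPKM in iPSC and 504 RPKM in ESC, and Cox6b2, a cytochrome oxidase subunit known from testis, had 0.255 RPKM, against 519.6 and 569 RPKM, with 255 RPKM in MEF. Rpl39l, a ribosomal protein of germ cells, had 0.0869 RPKM, against 368 and 398 RPKM. Plac9a had no read in brain NSC, against 383 and 1066 RPKM, which puts it at least 8166-fold below ESC at the limit of 3 reads. Spp1, osteopontin, had 1.68 RPKM in brain NSC, against 1175 and 2771 RPKM, and Ly6a (Sca-1), a surface protein, had 0.362 RPKM, against 558 and 792 RPKM, but both were also high in MEF, at 3035 and 168 RPKM, and the part of feeder cells in them was not tested. The pseudogenes Tdgf1-ps1 and Hsp25-ps1 were among the lowest as well, at 0.215 and 0.984 RPKM in brain NSC, against 781 and 814 RPKM in iPSC and 499 and 602 RPKM in ESC, and since they are near copies of Tdgf1 and Hspb1 their reads are uncertain.

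Germ line genes, which pluripotent mouse cells express in part and which are silenced in somatic cells by DNA methylation and Polycomb proteins, were lower in 22 of 26 cases. Dazl, an RNA-binding protein of germ cells, had 0 RPKM in brain NSC, against 146 RPKM in iPSC and 246 RPKM in ESC. Sohlh2, a bHLH factor, had 0 RPKM in brain NSC, against 155 and 168 RPKM, Rhox5, a homeobox gene of an X-linked cluster, had 1.13 RPKM, against 270.1 and 709.6 RPKM, and Rpl10l, a ribosomal protein of meiotic cells, had 0 RPKM, against 312 and 172 RPKM. The 1 higher member was Tdrkh, a piRNA pathway protein chosen for mention after its value was seen, with 70.7 RPKM in brain NSC, against 0.907 and 2.51 RPKM. In the OSKM-made NSC it had 30.4 RPKM with and 45.2 RPKM without the Tomato label.

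Promoters of the germ line genes are shown because part of them hold an E-box. RefSeq promoters (build GRCm38.p6, 250 bases before and 50 after the start) were matched for 18 of the 21 members that were lower at 4-fold. The E-box CACGTG, which is its own reverse complement, was found in 8 of the 18, beside 7.15% of all 32851 promoters in the table, and TTCCCGC, searched on both strands, in 5 of the 18, beside 4.60%. Among the promoters matched to tested genes the shares were 9.93% for CACGTG and 8.28% for TTCCCGC. More motifs were searched in the same 18 promoters. CAGCTG and CAGATG were each found in 4, beside 15.1% and 11.7% of the promoters matched to tested genes. TTGGCA and GTTGCC were each found in 1, beside 11.6% and 12.7%. ATGCAAAT and CATTGTT were found in 0, beside 1.46% and 1.87%. CACGTG and TTCCCGC stood furthest above their shares among the motifs searched. Only 65.3% of the tested genes had a matched promoter, so these shares cover a part of them. As background, in mouse pluripotent cells CACGTG and TTCCCGC are bound by complexes of MGA and MAX and by E2F6, which repress germ line genes. Binding was not measured here, and the match is a description of the letters. The 250 bases before the start of 3 members are given 5′ to 3′, with CACGTG and TTCCCGC or its reverse complement in capitals. They were chosen after the matches were known.
Hormad1 (chr3:95559427-95559676, + strand): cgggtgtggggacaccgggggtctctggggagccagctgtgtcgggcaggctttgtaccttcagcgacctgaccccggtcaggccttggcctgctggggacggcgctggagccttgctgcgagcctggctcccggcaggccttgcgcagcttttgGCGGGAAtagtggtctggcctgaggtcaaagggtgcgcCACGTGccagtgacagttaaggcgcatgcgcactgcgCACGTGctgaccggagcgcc
Stag3 (chr5:138280259-138280508, + strand): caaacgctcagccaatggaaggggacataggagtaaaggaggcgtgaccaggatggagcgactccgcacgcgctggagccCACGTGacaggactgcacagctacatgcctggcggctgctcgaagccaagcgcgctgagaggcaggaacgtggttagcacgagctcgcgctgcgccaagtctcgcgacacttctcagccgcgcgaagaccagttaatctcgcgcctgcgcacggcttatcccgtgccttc
Slc25a31 (chr3:40708621-40708870, + strand): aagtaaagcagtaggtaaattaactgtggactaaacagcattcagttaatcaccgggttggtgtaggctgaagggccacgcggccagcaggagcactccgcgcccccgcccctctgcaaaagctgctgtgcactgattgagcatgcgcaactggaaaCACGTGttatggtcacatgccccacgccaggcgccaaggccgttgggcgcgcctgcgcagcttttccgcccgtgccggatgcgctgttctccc

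Hormad1 holds 2 E-boxes, at positions 194 and 231, and the reverse complement of TTCCCGC at position 156, counted from 1 at the 5′ end. Stag3 has its E-box at position 81 and Slc25a31 at position 158. Each of these also has 1 match of TTCCCGC that is not marked. In Slc25a31 it lies in the 50 bases after the start, and in Stag3 it spans the start. Hormad1, a protein of meiotic chromosome axes, had 0 RPKM in brain NSC, against 41.1 RPKM in iPSC and 122 RPKM in ESC. Slc25a31, a germ cell ADP/ATP carrier, had 0 RPKM in brain NSC, against 9.27 and 12.4 RPKM, and Stag3, a meiotic cohesin, had 3.80 RPKM, against 20.6 and 37.2 RPKM. Two-cell-like genes, which a small share of pluripotent cells express, were lower in 6 of 8 cases, and the Zscan4 genes were higher in iPSC than in ESC: Zscan4c had 0.0325 RPKM in brain NSC, 38.6 RPKM in iPSC and 4.06 RPKM in ESC, with its reads uncertain among near copies.

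Epithelial genes were lower in 24 of 26 cases with none higher. Cdh1, E-cadherin, had 0.0920 RPKM in brain NSC, against 156 RPKM in iPSC and 391 RPKM in ESC, and Spint1 and St14, a protease inhibitor and its protease, had 0.00873 and 0.136 RPKM in brain NSC, against 116 and 123 RPKM in iPSC and 120.4 and 196 RPKM in ESC. Cldn4, a tight junction protein, had 0 RPKM in brain NSC, against 50.1 and 140.1 RPKM. Pecam1, an adhesion molecule of endothelium that mouse pluripotent cells also carry, had 0.186 RPKM in brain NSC, against 93.5 and 138 RPKM, while Cdh5, the defining endothelial cadherin, was at or under 0.0476 RPKM in all 3 libraries. In the immediate early and heat shock list 3 of 12 tested members were higher and 3 lower. Jun, a subunit of the AP-1 factor, had 100.1 RPKM in brain NSC, against 3.94 and 4.59 RPKM in iPSC and ESC, whereas Hspb1, a small heat shock protein, had 0.808 RPKM in brain NSC, against 413 and 255 RPKM, and Hsp90aa1 had 183 RPKM, against 1201 and 2328 RPKM. In the interferon list 4 of 12 were lower and 0 higher. The interferon-induced membrane proteins Ifitm1 and Ifitm3 had 6.78 and 16.6 RPKM in brain NSC, against 240.1 and 622 RPKM in iPSC and 502 and 1225 RPKM in ESC, with 284 and 1415 RPKM in MEF.

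Imprinted genes were lower in 10 of 21 cases and higher in 2. Grb10, a growth inhibitor, had 0.0548 RPKM in brain NSC, against 30.7 RPKM in iPSC and 108 RPKM in ESC, and the noncoding RNA Rian had 0.0227 RPKM, against 22.2 and 43.9 RPKM. H19 and Igf2 had 1.58 and 0.244 RPKM in brain NSC, against 107 and 53.8 RPKM in iPSC and 249.9 and 34.3 RPKM in ESC, but were 18104 and 3008 RPKM in MEF. Subtracting the MEF profile at the median share of the fibroblast list left the smaller log2 ratio of H19 at 0.33. The lower levels of H19, Igf2 and Col3a1 against both lines thus depended on this setting. Single genes of that list ranged from 0.032% to 19.6% of MEF in iPSC and from 0.532% to 199.9% in ESC. Col3a1 is itself in the list, so its result was in part fixed by the subtraction. The part of feeder cells in these levels was not tested. Nnat, neuronatin, was higher, with 307 RPKM in brain NSC, against 15.5 and 1.12 RPKM. In the fibroblast and mesenchyme list itself, 12 of 28 were lower and 2 higher, and the median log2 ratio was -0.40 over iPSC and -4.54 over ESC. Col3a1, a fibrillar collagen, had 0.366 RPKM in brain NSC, against 26.9 and 1477 RPKM, and Thy1, a surface protein of fibroblasts and neurons, had 0.833 RPKM, against 5.80 and 158 RPKM, with a smaller log2 ratio of -0.90 after the subtraction.

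The cell cycle list had 16 of 33 members lower and 7 higher. Among the lower members, Mybl2, a cell cycle transcription factor, had 7.41 RPKM in brain NSC, against 372 RPKM in iPSC and 326 RPKM in ESC, Ccne1, cyclin E1, had 13.01 RPKM, against 204 and 139 RPKM, and Mcm5, a subunit of the replicative helicase, had 47.2 RPKM, against 407 and 338 RPKM. The D cyclins split: Ccnd1 and Ccnd2 had 416 and 324 RPKM in brain NSC, against 48.6 and 4.38 RPKM in iPSC and 58.3 and 16.4 RPKM in ESC, while Ccnd3 had 44.4 RPKM in brain NSC, against 245 and 198 RPKM. Cdkn2c, an inhibitor of the kinases that D cyclins activate, had 29.5 RPKM in brain NSC, against 1.10 and 2.22 RPKM.

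Of 42 DNA methylation and chromatin genes 10 were higher and 12 lower, shares near those of all tested genes. Dnmt3l and Dnmt3b, a cofactor and an enzyme of de novo DNA methylation, had 0.262 and 2.30 RPKM in brain NSC, against 23.0 and 24.1 RPKM in iPSC and 28.3 and 38.2 RPKM in ESC, while Dnmt3a had 50.1 RPKM in brain NSC, against 10.7 and 6.67 RPKM. The Polycomb subunit Cbx7 had 3.50 RPKM in brain NSC, against 86.1 and 42.8 RPKM. Mbd3, a subunit of the NuRD complex that the iPSC line carries as 1 floxed and 1 deleted allele, had 170.1 RPKM in brain NSC, 68.4 RPKM in iPSC and 73.6 RPKM in ESC, so the iPSC value was close to that of the ESC line. In the BAF remodelling complex 8 of 22 subunits were higher and 2 lower: Dpf3 had 43.0 RPKM in brain NSC, against 0.929 and 0.416 RPKM, and the ATPase Smarca2 had 75.2 RPKM, against 1.804 and 10.5 RPKM. The other ATPase Smarca4 was alike in all, with 78.3 RPKM in brain NSC, 78.4 RPKM in iPSC and 78.1 RPKM in ESC. Actl6b, the subunit of mature neurons, was at 0.0270 RPKM in brain NSC and 0 in both lines.

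Within gene families, the balance between a member known from neural cells and one known from pluripotent cells was set side by side in 32 pairs, chosen from textbook knowledge with earlier results of these data known. The log2 ratio of the first to the second was above that of both pluripotent lines in 30 pairs, and the order of the members was turned round in 18. These 30 include pairs whose neural member was itself lower in brain NSC or near 0. Cbx2 had 8.22 RPKM in brain NSC, against 13.3 and 10.7 RPKM, and Actl6b had 0.0270 RPKM. Lin28b had 0 RPKM, against 3.68 and 3.19 RPKM, with Lin28a at 0.0158 RPKM in brain NSC, so that ratio rests on the 1 RPKM added. In 12 pairs both members passed 2-fold in opposite directions. Cdh2 over Cdh1, N- over E-cadherin, stood at 6.06 in brain NSC, against -4.81 in iPSC and -6.70 in ESC, and Egfr over Erbb3 at 7.33, against -2.03 and -1.11. Tet3 over Tet1, dioxygenases of methylated DNA, stood at 1.08 in brain NSC, against -4.23 and -3.89. Ptbp2 over Ptbp1, splicing repressors of which the first replaces the second in neurons, stood at -0.22 in brain NSC, against -3.96 and -3.46, with Ptbp2 at 90.2 RPKM and Ptbp1 at 105 RPKM there. Scaled to equal totals, the lower levels of Tet1 and Ptbp1 themselves came to -0.56 and -0.81 and were no longer past 2-fold. The exceptions were Ldhb over Ldha and Cdk6 over Cdk4, which were lower in brain NSC than in both lines.

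**Figure D4:**
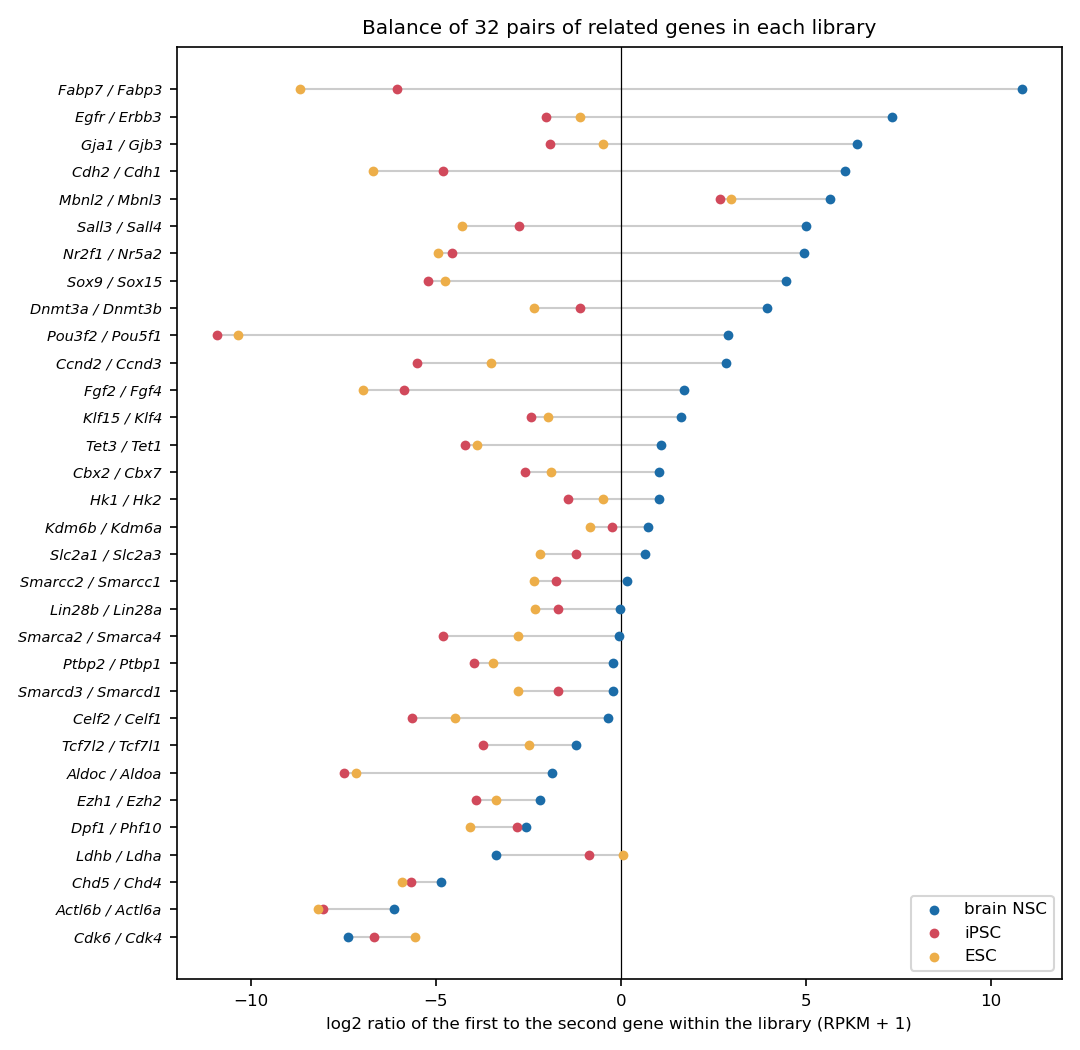
Log2 ratio of the first to the second gene of 32 related pairs within each library (horizontal, with 1 RPKM added), with 1 point per library. Brain NSC lies to the right of iPSC and ESC in 30 pairs and to the left in Ldhb / Ldha and Cdk6 / Cdk4.

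Splicing regulators were higher in 8 of 21 cases and lower in 7. Celf2 and Nova1, RNA-binding proteins of the brain, had 57.4 and 45.7 RPKM in brain NSC, against 0.550 and 2.69 RPKM in iPSC and 3.10 and 2.29 RPKM in ESC, and Qk, quaking, had 394 RPKM, against 44.1 and 54.9 RPKM. The usage of exons was therefore compared, as the level of an exon over its gene, in 63744 internal coding exons of 6205 genes with 10 RPKM or more in all 3 libraries. At 4-fold in both pairs, 76 exons of 26 genes were used more in brain NSC (0.119% of the exons tested) and 65 exons of 23 genes were used less (0.102%). An exon of Sept9, named after its values were seen, is among those counted as used less but had no read in any of the 3 libraries, and its call comes from the gene level, 371 RPKM in brain NSC, against 55.4 RPKM in iPSC and in ESC, and the 1 RPKM added. Neighbouring exons of 1 gene share a transcript and are not independent. In length the exons used more had a median of 112 bases and those used less of 83 bases, beside 119 for all tested.

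Dmd, the dystrophin gene on chromosome X, had a similar gene level in the 3 libraries, with 21.96 RPKM in brain NSC, 12.3 RPKM in iPSC and 10.6 RPKM in ESC, but its exons did not. Its coding exons fell into 3 stretches, whose edges were set after the values were seen. Its last 16 exons, 62 to 77 in this count, had a median of 74.1 RPKM in brain NSC, 54.5 RPKM in iPSC and 45.2 RPKM in ESC. Exons 44 to 61 had a median of 18.7 RPKM in brain NSC, against 0 RPKM in both lines, where 16 of 18 exons in iPSC and 14 of 18 in ESC had no read. Exons 1 to 43 had a median of 2.55 RPKM in brain NSC and no exon at 0, against 41 of 43 at 0 in each line. As background, dystrophin has internal promoters that give shorter proteins, of which Dp140 is known from brain and Dp71 from many tissues. Which start sites were used was not measured here.

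Tns1, tensin 1, which links integrins to actin, showed the reverse at its 5′ end. Exons 2 to 17 had a median of 0.158 RPKM in brain NSC, against 18.2 RPKM in iPSC and 22.1 RPKM in ESC, and 8 of the 16 had no read in brain NSC. Exons 18 to 24 had 14.5 RPKM in brain NSC, 15.0 RPKM in iPSC and 3.06 RPKM in ESC, and exons 25 to 32 were level, with medians of 34.3 RPKM in brain NSC, 35.3 RPKM in iPSC and 37.9 RPKM in ESC. Triobp, an actin-binding protein, had the opposite pattern, with a median of 13.02 RPKM over its first 7 coding exons in brain NSC, against 0.329 and 0.244 RPKM, and of 21.98 RPKM over exons 11 to 20 in brain NSC, against 57.3 and 33.5 RPKM. In Dhx16, an RNA helicase, the difference lay in the 3′ exons 13 to 19, whose median was 68.8 RPKM in brain NSC, against 1042 and 1039.8 RPKM, while exons 1 to 12 had 32.4 RPKM in brain NSC, against 51.1 and 30.7 RPKM.

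**Figure D5:**
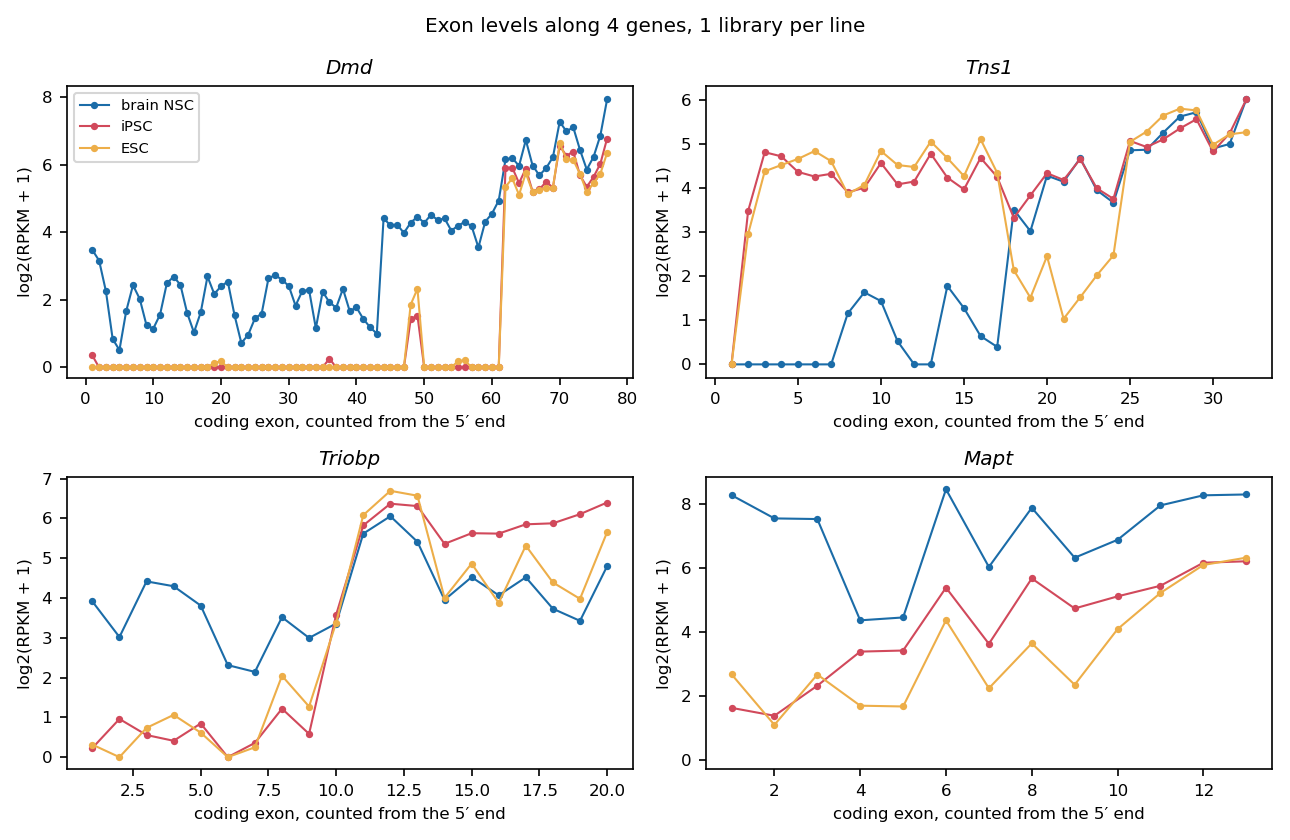
Level of each coding exon as log2(RPKM + 1) (vertical) by its place from the 5′ end (horizontal) in Dmd, Tns1, Triobp and Mapt, with 1 line per library. In Dmd the iPSC and ESC lines stay at or near 0 before exon 44 while the brain NSC line lies above them and steps up there, and in Tns1 the brain NSC line is low from exon 2 to 17 and meets the iPSC line at exon 18.

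Single exons are shown for 3 genes whose exons stood out, to give the bases counted. Mapt and Plcg1 were chosen after their values were seen, and Scml2 by its place among the largest differences. All are 5′ to 3′ on the + strand, cut from the GENCODE M21 transcripts (GRCm38), and each has a length that keeps the reading frame.
Mapt (chr11:104287123-104287209): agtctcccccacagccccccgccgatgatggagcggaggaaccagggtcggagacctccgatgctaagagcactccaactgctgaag
Plcg1 (chr2:160774528-160774587): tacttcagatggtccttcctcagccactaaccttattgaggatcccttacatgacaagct
Scml2, left copy (chrX:161121024-161121101): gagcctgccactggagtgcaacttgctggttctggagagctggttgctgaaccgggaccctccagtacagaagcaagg
Scml2, middle copy (chrX:161144763-161144840): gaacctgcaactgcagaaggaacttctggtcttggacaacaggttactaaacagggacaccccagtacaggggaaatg
Scml2, right copy (chrX:161153833-161153910): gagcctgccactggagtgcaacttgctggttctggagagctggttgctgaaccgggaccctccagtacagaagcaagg

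The exon of Mapt, the microtubule protein tau, is the second coding exon and adds an insert near the N-terminus. It had 186 RPKM in brain NSC, from 438 reads, against 1.59 RPKM in iPSC and 1.12 RPKM in ESC, from 8 and 4 reads, while the gene had 122 RPKM in brain NSC, against 16.02 and 12.56 RPKM. Its neighbours differed as well: coding exon 1 had 309.6 RPKM in brain NSC, against 2.07 and 5.37 RPKM, and exon 3 had 184 RPKM, against 3.96 and 5.33 RPKM, so the difference covers the 5′ end and not exon 2 alone. The Plcg1 exon, of a phospholipase that acts below growth factor receptors, had 51.2 RPKM in brain NSC, against 0.287 and 0.813 RPKM, with 127 RPKM for the gene in brain NSC, against 67.1 and 49.6 RPKM. It is the last of 32 coding exons in the count used here. It starts at 160774528, while the coding exon before it ends at 160761923, so it lies apart at the 3′ end. Which transcripts hold it was not measured. The 3 exons of Scml2, an X-linked Polycomb protein of the germ line, each have 78 bases. The copies at the left and right end are identical in all 78 bases and the middle copy shares 54 of 78 with them, so reads of these outer copies cannot be told apart. None of the 3 had a read in brain NSC, against 187, 254 and 289.6 RPKM in iPSC and 158, 213 and 221 RPKM in ESC, while the gene had 22.4 RPKM in brain NSC, against 162 and 116 RPKM.

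The genes also differed in a property that the rule did not use. The higher genes had a median genomic length of 39.5 kb, the lower genes of 13.76 kb and all tested genes of 16.9 kb, and 30.8% of the higher genes spanned 100 kb or more, beside 7.66% of the lower and 11.1% of all tested genes. RefSeq promoters were matched for 69.2% of the higher and 63.6% of the lower genes, which is under the 80% set for such a check. The base composition and motifs of higher and lower genes were therefore not compared. The motif shares of tested genes given with the germ line promoters fall under the same limit. Of the genes on chromosome X, 80 were higher and 172 lower out of 919 tested, beside 1476 (8.63%) and 1671 (9.77%) of all 17095 tested genes. On chromosome Y 16 genes were lower. Leaving out chromosomes X and Y left 16152 of the 17095 tested genes. The libraries differ in Xist and Eif2s3y as given above, and the part of sex in these counts was not tested.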

How the data were processed

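RNA-seq of polyadenylated RNA was measured in 7 mouse libraries, 3 of which are compared here. The authors deposited RPKM per Ensembl exon, 1 value per exon and library, and, per the submitters' processing notes, the tools included TopHat2 2.0.10 with Bowtie, CASAVA 1.8.2 and bedtools, on build mm10. Of 279252 exons, 96.6% were matched by exon ID to GENCODE M21 (GRCm38). A gene's value was the mean of its exon RPKM weighted by exon length, and strand was not used, so reads of overlapping genes and near copies can be shared. Depth was recovered in whole megareads: 96.4% of values in brain NSC were whole reads within 0.01 read plus 1e-05 of the value. Ratios are log2((a + 1)/(b + 1)) in RPKM, with a floor of 2 RPKM and a 4-fold limit in both pairs (2-fold for list members). Rankings use the smaller absolute ratio. Counting intervals are exact (Clopper-Pearson, 95%) on recovered reads and are printed only where they hold the RPKM ratio. The rules ran on simulated data first. Python 3.11.15, numpy 2.4.6, pandas 2.3.3, scipy 1.17.1, Biopython 1.88 and matplotlib 3.10.9 were used.

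The 37 lists, of which 763 of 768 distinct genes were matched, the 32 pairs and the members were chosen with earlier results of these data known, so no pattern shown before is independent support. Genes were named by a rule: the 12 highest and 12 lowest by ratio, leaving out unnamed gene models, the 10 most abundant in brain NSC among the higher and in iPSC among the lower genes, up to 6 list members with the largest and 2 with the least ratio, pair members, the 12 exons with the largest usage difference, and fixed markers. Dmd, Triobp, Dhx16 and single genes said to be so were chosen after their values were seen. Usage is log2((exon + 1)/(gene + 1)), for exons of 30 bases or more that overlap no other gene. No replicates exist, so no p-value is given, and the labels record no batch. The values of a few rule-named genes are left out of the text.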

Additional observations from a re-analysis of the deposited data

Results flagged for a closer look

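Named genes that passed 4-fold in opposite directions against the pluripotent lines were taken out for a closer look, and with 1 library in each group these differences were not tested. Hprt, the purine salvage enzyme on chromosome X, had 72.1 RPKM in brain NSC, 0.669 RPKM in iPSC and 549 RPKM in ESC, with log2 ratios of 5.45 over iPSC and -2.91 over ESC. Sept6, a septin on the same chromosome, had 30.5 RPKM in brain NSC, 2.46 RPKM in iPSC and 315 RPKM in ESC, with log2 ratios of 3.19 and -3.33. H2-T10, listed as a polymorphic pseudogene of the major histocompatibility complex with near copies, had 20.1 RPKM in brain NSC, 4.16 RPKM in iPSC and 121 RPKM in ESC, with log2 ratios of 2.03 and -2.53, and 107 RPKM in MEF. The part of strain and of feeder cells in these values was not tested.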

How the results depend on the processing

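No paired analysis was possible because each group has 1 library. The genes counted as higher and lower moved by over 1.5 times under a pseudocount of 4 RPKM (869 higher, 917 lower), and the lower genes also against ESC alone (2545). Under the other settings (equal totals, median-of-ratios scaling, a pseudocount of 0.25, a floor of 0.4 RPKM, of 8 RPKM or no floor, only the highest exon of a gene, no overlapping exons, iPSC alone, no X or Y genes, the feeder share subtracted) the higher genes numbered 1301 to 2101 and the lower 1398 to 2430. Subtracting 0.583% of the MEF profile from iPSC and 11.5% from ESC gave 1785 higher and 1553 lower genes, and turned the smaller log2 ratio of Acta2 to 1.38, of Col1a1 to 0.77, of Col1a2 to 0.57 and of H19 to 0.33. Acta2, Col1a1 and Col1a2 belong to the list that set these shares. Of the 329 genes named by rule, no other that passed 2-fold in both pairs had its smaller log2 ratio reversed under any setting run. A gene whose sign changed against only 1 of the pluripotent lines was not counted as reversed. Igf2 and Col3a1, whose lower levels depended on the subtraction as given above, are not counted for this reason. Sign changes of named genes that did not pass 2-fold were not counted. Of 36 lists with more members on one side, 34 to 36 kept that side. Exons used more and less numbered 39 and 17 with a gene minimum of 25 RPKM, 117 and 102 with a pseudocount of 0.25, 39 and 32 with 4, 175 and 171 with terminal exons, 185 and 112 against iPSC alone, and 244 and 113 against ESC alone. The gene minimum of 25 RPKM left 37610 exons and terminal exons gave 93159, in place of 63744. The cause of the other shifts was not tested. Of the 3 libraries compared, brain NSC has the fewest reads, so depth limits it most.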
